A study of Mus musculus with 19 samples.

Results

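The interleukin 6 (IL-6) family and its signalling route through STAT3 were followed in chromatin accessibility data through 10 genes. These were the ligand genes Il6, Lif, Clcf1 and Cntf, the receptor genes Il6st, Lifr and Osmr, the kinase gene Jak2, the transcription factor gene Stat3 and the feedback inhibitor gene Socs3. A peak counted as a member if its centre lay inside the gene or within 20 kb of either end of it in the RefSeq annotation of mouse assembly GRCm38.p6. The rule took 66 of 90154 peaks, and all 66 passed the filter on low values. The measured levels played no part in the rule. Lifr held 15 of these peaks, Jak2 9, Clcf1 8, Stat3, Lif and Socs3 7 each, Osmr 5, Il6st and Cntf 3 each and Il6 2.

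The 19 libraries were made by ATAC-seq, where a transposase inserts adapters wherever DNA is open, from mouse cells. The C57BL/6J wild type embryos were at embryonic day 14, and each primary culture started from the ventricular zone of 1 brain. Neurosphere cells (NSPs, 3 libraries) grew as floating spheres in medium with EGF at 20 ng/ml. Differentiation towards astrocytes was started by a change to medium with 10% foetal bovine serum and lasted 24 h (3 libraries), 72 h (3) or 1 week (4), and TNF, an inflammatory cytokine, was present at 50 ng/ml in a further 3 libraries at 24 h and 3 at 72 h. TNF-treated cells at 1 week were not analysed here. The cells are an in vitro model in serum, and every group received the same dose of TNF or none. Nothing in the labels ties a replicate to its own brain or culture, so p-values measure the spread between these libraries, which may be technical in part. Because whole cultures were assayed, a site open in fewer cells and a site less open in each cell cannot be told apart.

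IL-6 family cytokines bind receptor complexes that share gp130, the product of Il6st. LIF, CNTF and CLCF1 also use the LIF receptor, and oncostatin M uses the oncostatin M receptor, encoded by Osmr. Receptor engagement activates JAK kinases, which phosphorylate STAT3, and STAT3 drives astrocyte genes such as Gfap during gliogenesis as well as its own inhibitor Socs3.

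The promoter sequences of Il6, Cntf, Osmr and Socs3 are shown because their promoter peaks differ in response below, and because each holds a match to a motif of a factor class that acts in cytokine signalling. Sequences run 5′ to 3′ from 250 bases before to 50 bases after the start of the gene (RefSeq, GRCm38.p6). Capitals mark matches on either strand to TTCNNNGAA (the STAT motif), TGANTCA (AP-1) or the NF-κB motif.
Il6, chr5:30012864-30013163, plus strand: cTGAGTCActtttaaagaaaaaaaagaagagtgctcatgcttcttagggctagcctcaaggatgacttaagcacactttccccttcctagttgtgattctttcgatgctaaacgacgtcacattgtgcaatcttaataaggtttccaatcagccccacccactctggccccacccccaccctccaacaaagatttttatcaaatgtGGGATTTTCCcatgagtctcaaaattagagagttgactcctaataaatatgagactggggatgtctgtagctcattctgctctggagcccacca
Cntf, chr19:12765583-12765882, minus strand: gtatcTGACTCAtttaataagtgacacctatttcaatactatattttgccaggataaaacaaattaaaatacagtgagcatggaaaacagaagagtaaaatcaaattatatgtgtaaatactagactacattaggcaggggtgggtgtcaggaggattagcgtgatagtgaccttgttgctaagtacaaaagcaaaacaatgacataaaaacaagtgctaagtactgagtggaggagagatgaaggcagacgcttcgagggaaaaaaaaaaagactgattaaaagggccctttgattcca
Osmr, chr15:6874264-6874563, minus strand: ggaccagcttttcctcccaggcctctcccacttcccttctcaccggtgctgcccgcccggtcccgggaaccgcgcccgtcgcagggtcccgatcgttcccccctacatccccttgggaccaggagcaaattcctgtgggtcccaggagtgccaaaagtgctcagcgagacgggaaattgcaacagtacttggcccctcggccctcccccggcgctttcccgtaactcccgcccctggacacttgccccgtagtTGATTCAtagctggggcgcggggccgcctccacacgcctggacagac
Socs3, chr11:117969317-117969616, minus strand: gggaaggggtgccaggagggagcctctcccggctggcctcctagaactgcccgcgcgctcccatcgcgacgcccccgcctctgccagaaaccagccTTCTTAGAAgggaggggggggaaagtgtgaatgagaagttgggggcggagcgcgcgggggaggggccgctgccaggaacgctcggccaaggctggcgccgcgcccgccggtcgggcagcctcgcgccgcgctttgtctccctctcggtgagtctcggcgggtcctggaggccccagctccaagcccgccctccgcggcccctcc
The Il6 window held an AP-1 match 249 bases and an NF-κB match 44 bases before the start. The Cntf window held an AP-1 match 245 bases before the start, the Osmr window an AP-1 match 3 bases after it, and the Socs3 window a STAT match 154 bases before it. Of the other 5 member genes in the promoter table, Lif held an AP-1 match 228 bases and an NF-κB match 178 bases before its start, and Stat3, Il6st, Lifr and Jak2 held none of these letters. Among all 32851 promoters of the table, 8.3% held the STAT motif, 7.81% the AP-1 motif and 8.46% the NF-κB motif. A match describes letters and not a bound site. The start peak covers the whole window at Osmr and only part of it at Il6, Cntf and Socs3, so a match need not lie inside the peak. The Cntf AP-1 match lies outside the Cntf start peak.

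Values are normalised reads per peak as deposited. Every one was a whole multiple of what 1 read is worth in its library, which gave the reads behind it. Reads in peaks ranged from 9640256 to 39349111 per library, most in the NSP libraries. NSP replicate 1 stood apart from the other 2 NSP libraries (Spearman 0.9163 and 0.9261 across peaks, against 0.9825 between those 2). The 10 libraries of 72 h, 72 h with TNF and 1 week carry the tag Luc in their names and the other 9 do not, and 226 peaks that were tested elsewhere had 1 read in all 10 Luc libraries. All 8 Clcf1 peaks were among them, and they were tested only among NSPs, 24 h and 24 h with TNF. Comparisons of 72 h with 24 h, and of 1 week with NSPs, cross this tag, and tag and time cannot be told apart there. Of 7 astrocyte markers, 5 had a peak within 1 kb of a RefSeq start, and from NSPs to 24 h only the one at Gfap was called higher (108 to 489). Those at Slc1a3 (251 to 189) and S100b (562 to 372) were lower, and those at Aldh1l1 and Gja1 were not called. All 4 peaks found at neural progenitor markers were lower in the same step, and the peak of the oligodendrocyte lineage gene Olig2 fell from 1471 to 665. Their part in the results at 24 h was not tested. Microglial markers nearly lacked peaks near their starts, with a peak at 1 of 6 genes (P2ry12), whose values lay between 32.3 and 86.2. Its mean was lower at 1 week than in NSPs, across the tag (82.6 to 37.9, log2 fold change -1.11, limma-trend adjusted p = 0.000198).

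With TNF, peaks were called higher in the windows of Stat3, Osmr, Il6st, Socs3, Clcf1 and Lifr. The Lifr one lay in the neighbouring gene Egflam, and the Stat3 and Lifr windows each also held 1 lower peak at 24 h. After 24 h, TNF-treated cells had 8 of 66 member peaks higher and 2 lower (limma-trend, adjusted p under 0.05), where 7.06% of all tested peaks were higher and 3.53% lower. At 72 h, 5 of 58 testable member peaks were higher, beside 6.26% of all peaks, and 0 were lower, beside 5.56%. The lower count at 72 h was 2 at an unadjusted p under 0.05, and 0 by edgeR and by DESeq2. The members' median log2 fold change was 0.18 at 24 h and 0.13 at 72 h, against -0.03 and 0.03 over all peaks. When NSP replicate 1 was left out, which changes the shared estimate of spread, the calls were 13 higher and 3 lower at 24 h, with 8 higher and 1 lower at 72 h. Leaving out 24 h replicate 2 left 5 higher and 0 lower at 24 h, and leaving out 24 h replicate 3 also left 0 lower. The shares of all peaks above belong to the fit to all 19 libraries and cannot be set beside the counts of these smaller fits.

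In differentiation without TNF, 8 of 20 ligand peaks were higher at 24 h than in NSPs and 1 lower. These 20 include the 8 Clcf1 peaks, whose shared spread takes in the 10 libraries with 1 read. Fits to the groups alone called further Clcf1 peaks, in both directions (given below). Of the 23 receptor peaks, 4 were higher and 9 lower. Jak2 had 1 of 9 higher and 4 lower, while Stat3 had 5 of 7 lower and Socs3 4 of 7 lower, with 0 higher at either gene. In all, 13 of 66 member peaks were higher at 24 h than in NSPs and 23 lower, beside 24.2% and 23% of all peaks. From 72 h to 1 week, 15 of 58 were higher and 9 lower, beside 22.6% and 16.2%. The step from 24 h to 72 h raised 14 and lowered 8, beside 12.1% and 14.1%. By 1 week, 22 were above and 22 below NSPs, beside 33.8% and 33.4%. Scaling by total reads in peaks moved the 24 h split to 15 higher and 14 lower, and the split at 1 week against 72 h to 8 higher and 17 lower. It also moved the median of all peaks from -0.07 to 0.11 and from 0.02 to -0.32 in these comparisons.

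**Figure D1:**
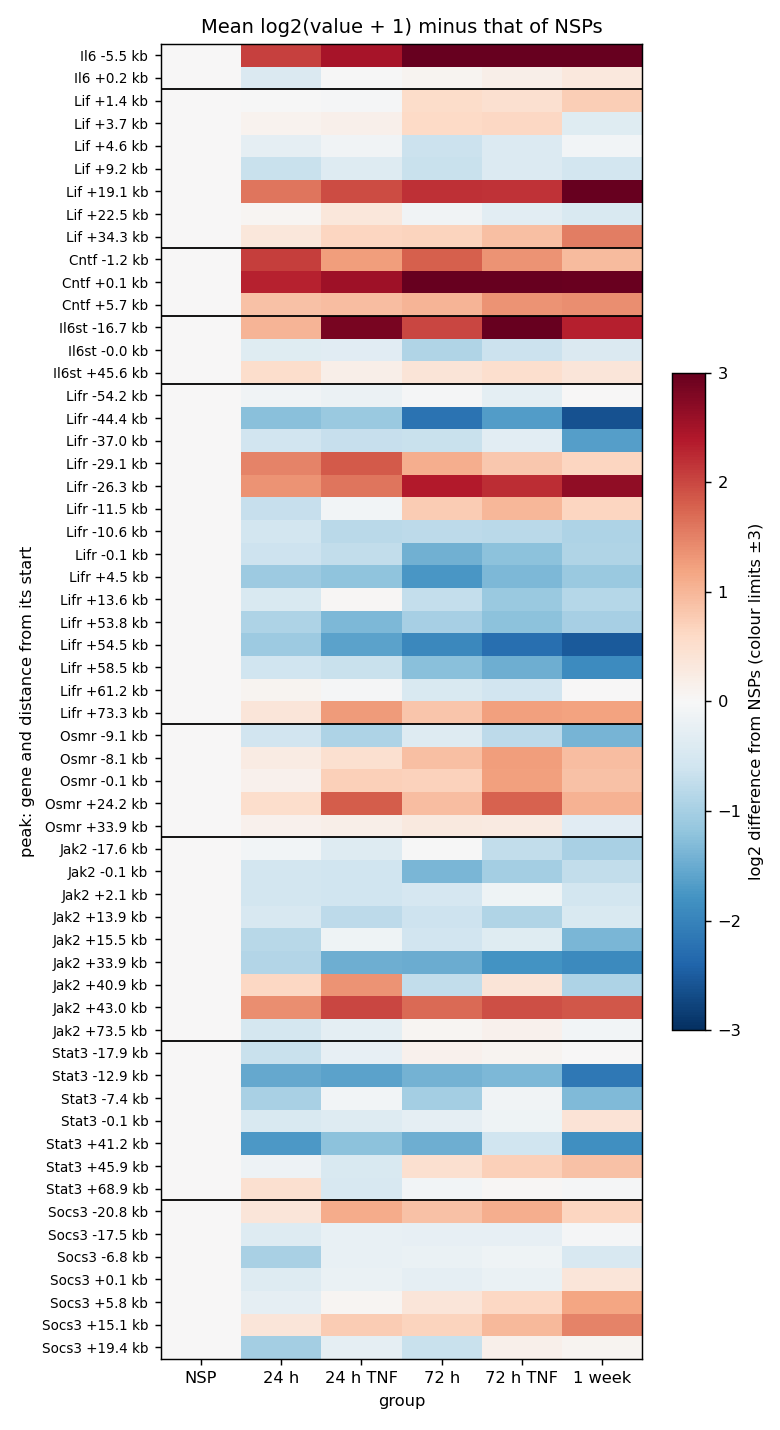
Each line is 1 of the 58 member peaks outside Clcf1, ordered by gene and by distance from the nearest start of the gene. Colour gives the group mean of log2(value + 1) minus that of NSPs, cut at 3 either way. The upstream Il6 peak, the Cntf start and a downstream Lif peak are red in every differentiated group, and most Lifr lines are blue.

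The heat map of all testable peaks shows the gains at the ligand genes and the losses at Lifr, where 8 of 15 peaks were lower at 24 h. The ligands come first.

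Il6 (chr5:30013114-30019975) encodes the founding cytokine of the family. Its upstream peak at chr5:30007372-30007872, 5.5 kb before the start, was low in NSPs and rose at every step. The values were 31, 12.7 and 12 in NSPs, 78.6, 67.9 and 72.7 at 24 h, 238, 275 and 254 at 72 h, and 471, 406, 533 and 526 at 1 week. No library of an earlier time reached the lowest of the next. The log2 fold change was 2.05 ± 0.23 (SE) at 24 h against NSPs (adjusted p = 1.5e-08), 1.79 ± 0.23 at 72 h against 24 h (1.3e-06, across the tag) and 0.91 ± 0.21 at 1 week against 72 h (0.00119), the last 0.57 after total-read scaling (0.0256). NSP values rested on 18 to 53 reads. With TNF the peak had 82.2, 113 and 99.7 at 24 h and 309, 245 and 277 at 72 h, and neither difference passed the test (0.41 ± 0.23, adjusted p = 0.289, and 0.11 ± 0.23, 0.808).

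The peak at the Il6 start, whose promoter window holds the NF-κB match above, was called in 1 comparison. Its mean was 182 ± 11 (SD, n = 3) in NSPs and 231 ± 39.2 (n = 4) at 1 week. After 24 h it was 136 ± 25.6 without and 184 ± 37.6 with TNF, and after 72 h 192 ± 19.9 without and 208 ± 44.6 with TNF. From 24 h to 72 h, across the tag, it rose by 0.51 ± 0.18 without overlap (adjusted p = 0.0409), a call lost without 24 h replicate 1 (0.0738), 24 h replicate 2 (0.209), 72 h replicate 1 (0.136) or 72 h replicate 3 (0.101). The TNF differences were 0.43 ± 0.18 (adjusted p = 0.148) and 0.1 ± 0.18 (0.79). The fall at 24 h against NSPs missed the threshold at 0.0521, and passed it without 24 h replicate 3 (0.0284) and without any of 4 other libraries in turn, NSP replicate 1 among them (0.0422).

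Lif (chr11:4257568-4272514) encodes leukaemia inhibitory factor, a cytokine that promotes astrocyte formation. No Lif peak lay within 1 kb of the start. The peak at chr11:4276401-4276901, 19.1 kb downstream of the start and outside the gene, had 33.9, 26.4 and 36.5 in NSPs, 107, 108 and 86.2 at 24 h, 185, 129 and 139 at 72 h, and 313, 278, 350 and 267 at 1 week. Here too the libraries of successive times did not overlap. The change was 1.61 ± 0.19 at 24 h (adjusted p = 3.3e-08) and 1 ± 0.17 at 1 week against 72 h (5.3e-05). A second distal peak, 34.3 kb downstream of the start, had means of 663 ± 109 in NSPs, 834 ± 78.9 at 24 h, 1051 ± 22.9 at 72 h and 1902 ± 145 after 1 week. Its last step was 0.85 ± 0.1 (4.7e-07), but 0.51 (3.6e-05) after total-read scaling and 0.28 (0.0066) after loess offsets, which remove trends with peak level in each library.

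No Lif peak was called with TNF at either time. The nearest was the peak at 34.3 kb, with 1051, 1026 and 1020 at 24 h with TNF against 862, 895 and 745 without. These libraries did not overlap, but the difference of 0.31 ± 0.11 had an adjusted p of 0.0629. Inside the gene the peaks were mixed. The one 9.2 kb into it fell at 24 h (-0.66 ± 0.17, adjusted p = 0.00238), and the one at 3.7 kb was lower at 1 week than at 72 h (-0.97 ± 0.27, 0.00585), a call lost without 72 h replicate 1 (-0.71, 0.072).

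Cntf (chr19:12763528-12765632) encodes ciliary neurotrophic factor, which in the brain is made by astrocytes. All 3 Cntf peaks were higher at 24 h than in NSPs. The peak at its start, chr19:12765299-12765799, had 28.6, 17.4 and 21.9 in NSPs, 122, 109 and 113 at 24 h, 158, 206 and 194 at 72 h and 165, 202, 167 and 191 at 1 week. Every differentiated library lay above every NSP library, and 72 h and 1 week overlapped. The change at 24 h was 2.32 ± 0.19 (adjusted p = 5.1e-11). The peak 5.7 kb downstream of the start rose from 195 ± 62.3 to 354 ± 74 (0.88 ± 0.16, 4e-05). The third, 1.2 kb upstream and within 1 kb of an end of the neighbouring gene Zfp91, rose from 36.5 ± 31.9 to 125 ± 29.3 (2.07 ± 0.34, 1.1e-05).

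TNF left the Cntf peaks without a call. The start had 164, 137 and 107 at 24 h with TNF (0.22 ± 0.19, adjusted p = 0.566) and 192, 251 and 215 at 72 h with TNF (0.24 ± 0.19, 0.479), and both sets overlapped those without TNF. The peak 1.2 kb upstream was lower without overlap, with 100 to 158 against 69.6 to 70 with TNF at 24 h, and 96.5 to 109 against 67.2 to 80.5 at 72 h. The peak 5.7 kb downstream overlapped at 24 h. At 72 h it had 371 to 395 without and 452 to 507 with TNF.

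**Figure D2:**
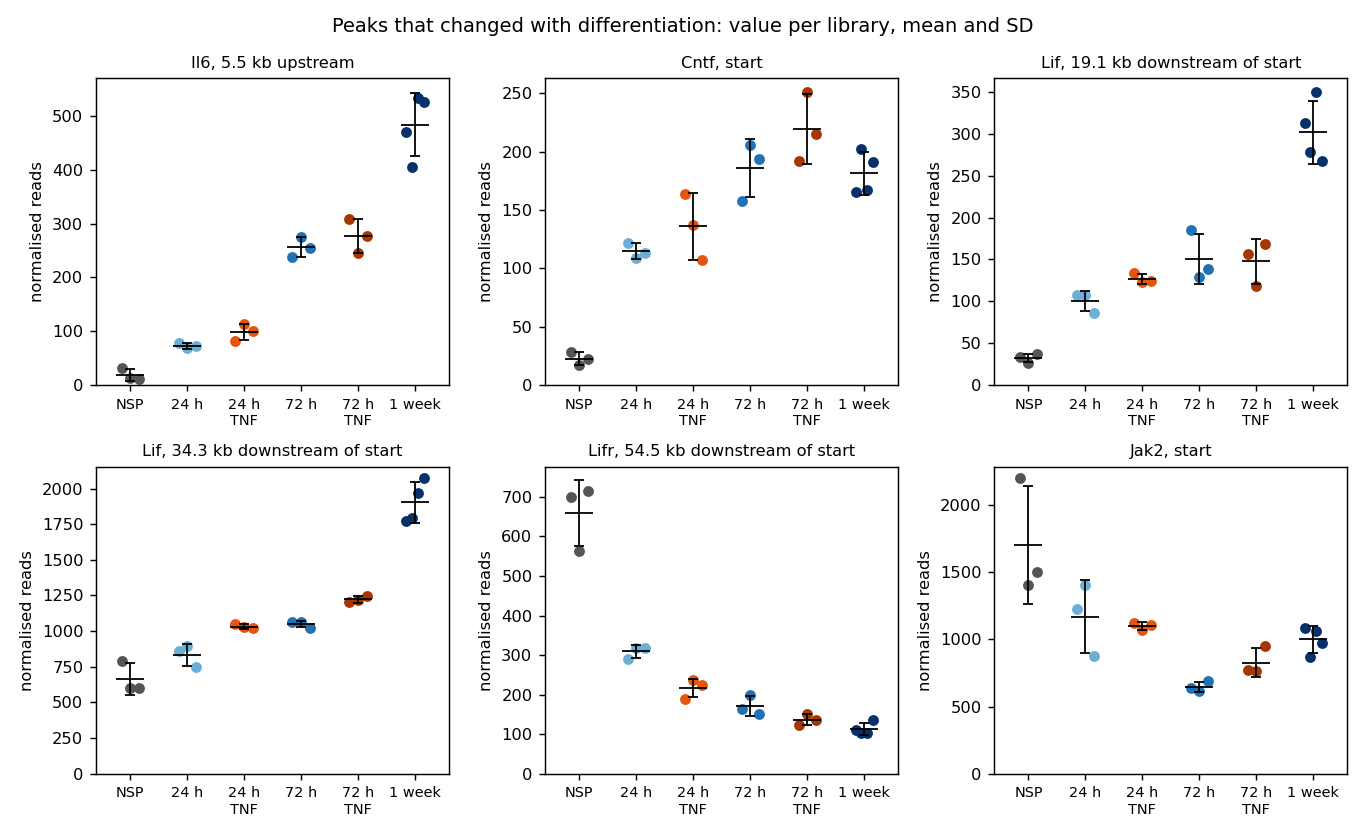
Normalised reads in each library (points) with the group mean and SD (bars) for 6 member peaks across the 6 groups; every axis starts at 0. The Il6, Cntf and Lif peaks climb from NSPs to 1 week or 72 h, while the Lifr peak falls from a mean of 660 in NSPs to 114 at 1 week and the Jak2 start falls to 648 at 72 h.

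Of the 6 peaks in the plot of differentiation peaks by library, the Lifr peak was called lower with TNF at 24 h, and the other 5 were not called with TNF at either time.

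Clcf1 (chr19:4214238-4223505) encodes cardiotrophin-like cytokine factor 1, a ligand of the CNTF receptor complex. Its strongest response lay at chr19:4213432-4213932, 0.6 kb outside 1 end of the gene, where the libraries had 243, 223 and 195 in NSPs, 587, 502 and 515 at 24 h and 1047, 1174 and 1092 at 24 h with TNF. The 3 groups did not overlap at any point. The change was 1.28 ± 0.31 at 24 h against NSPs (adjusted p = 0.00112) and 1.05 ± 0.31 with TNF (0.025). The fit shares 1 spread over all 19 libraries, among them the 10 with 1 read at this peak. In fits to only the 2 groups compared, the adjusted p was 0.000122 for 24 h and 1.3e-09 for TNF. In the fit to all libraries the TNF call was lost when any of the 6 libraries of that contrast was left out (adjusted p from 0.0665 to 0.111).

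The other 7 Clcf1 peaks were not called with TNF. The peak inside the gene, 1.2 kb from its other end, rose at 24 h from 68.7 ± 22.2 to 151 ± 17.7 (1.18 ± 0.43, adjusted p = 0.0247), a call lost without NSP replicate 1 (0.89, 0.162), 24 h replicate 1 (0.0788) or 24 h replicate 2 (0.062), and larger after loess offsets (2, 0.000197). The peak 18.8 kb from the gene lies in Rad9a and had 485 to 721 in NSPs, a median of 353 and at most 362 at 24 h, and 233 to 297 with TNF, without overlap. It was not called in the fit to all libraries (0.0707 and 0.569), and was lower in both comparisons in the fits to the groups alone (0.00611 and 0.0373). The peak 8.4 kb from the gene had 553 to 616 in NSPs and 360 to 429 at 24 h. That fall was likewise called only in other fits, such as that to the 2 groups alone (-0.62, 0.00593). In the same fit the peak 1.0 kb from a gene end was higher (0.71, 0.0391), which the fit to all libraries did not call. At 72 h and 1 week every Clcf1 peak held 1 read per library, so Clcf1 could not be followed there.

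Il6st (chr13:112464070-112506860) encodes gp130, the subunit that all these receptors share. The TNF response lay at chr13:112447081-112447581, 16.7 kb upstream of the start. At 24 h the values were 36.4, 36.9 and 30.8 without TNF and 117, 112 and 154 with it, and at 72 h they were 86.2, 58.6 and 67.6 without and 168, 115 and 148 with it. The groups did not overlap at either time. The change was 1.84 ± 0.28 at 24 h (adjusted p = 4.3e-05) and 1.01 ± 0.28 at 72 h (0.0156). The 72 h call was lost without 72 h replicate 2 (0.89, 0.0792), 72 h replicate 3 (0.0531), 72 h TNF replicate 1 (0.0843) or 72 h TNF replicate 3 (0.0594), and with a block by library-name number (0.93, 0.0591). Without TNF the peak opened as well, from 18.3 ± 9.68 in NSPs to 88.6 ± 12.5 at 1 week.

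The Il6st start took the opposite course in differentiation. Its means were 1404 ± 66.2 in NSPs, 1089 ± 50.5 at 24 h, 752 ± 60.9 at 72 h and 1035 ± 54.4 at 1 week. A difference of -0.37 ± 0.1 at 24 h against NSPs passed the test (adjusted p = 0.00264) but was not called after loess offsets (-0.12, 0.224) or total-read scaling (-0.18, 0.0927). With TNF the start changed by 0.04 ± 0.1 at 24 h (0.889) and 0.26 ± 0.1 at 72 h (0.0837), the latter called without NSP replicate 1 (0.0474).

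Osmr (chr15:6813568-6874968) encodes the oncostatin M receptor. Its peak at chr15:6849877-6850377, inside the gene and 24.2 kb downstream of the start, had 178, 183 and 138 at 24 h against 384, 377 and 446 with TNF, and 197, 237 and 217 at 72 h against 445, 341 and 390 with TNF. All 6 treated libraries lay above all untreated ones, NSPs and 1 week included. The change was 1.28 ± 0.15 at 24 h (adjusted p = 1e-06) and 0.85 ± 0.15 at 72 h (0.000277).

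The Osmr start, whose sequence is given above, had 104, 122 and 168 at 24 h and 208, 186 and 186 with TNF. The groups did not overlap, and the rise of 0.58 ± 0.19 was called (adjusted p = 0.0413). It was not called by edgeR (0.0589), after loess offsets (0.0522), in the fit to the 9 untagged libraries (0.118), or without 24 h replicate 1 (0.43, 0.241), 24 h replicate 2 (0.125), any 1 of the 24 h TNF libraries (0.0839 to 0.142) or 72 h TNF replicate 1 or 3 (0.0512 and 0.0503). At 72 h the difference was nearly as large (0.53 ± 0.19) and missed the threshold (0.0621), while the fit to the 72 h groups alone called it (0.00718), as did that without NSP replicate 1 (0.0214) and those without NSP replicate 3, 24 h replicate 3 or 72 h replicate 2 (0.0393 to 0.0468). The other 3 Osmr peaks were not called with TNF at either time.

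Lifr (chr15:7090610-7197489) encodes the LIF receptor, and held the most peaks of the members. Distances are given from the nearer of its 2 RefSeq starts, the first at 7129572 and the second at 7140542. The gene model reaches further upstream. At 24 h, 8 of its 15 peaks were lower than in NSPs and 2 higher. The peak at chr15:7194784-7195284 lies inside the gene, 54.5 kb downstream of the second start. It had 700, 564 and 715 in NSPs, 291, 319 and 318 at 24 h, 163, 200 and 150 at 72 h and 111, 104, 103 and 136 at 1 week. Successive times did not overlap, and the change was -1.08 ± 0.15 at 24 h (adjusted p = 8.7e-07) and -0.58 ± 0.14 at 1 week against 72 h (0.00176), the latter -0.92 after total-read scaling (2.1e-05).

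TNF lowered the same Lifr peak further at 24 h, to a mean of 217 ± 23.8 and values from 190 to 236, all below the untreated ones (-0.52 ± 0.15, adjusted p = 0.0246). At 72 h it had 123, 152 and 136 with TNF, where 1 treated library overlapped the untreated ones (-0.31 ± 0.15, 0.194). The 24 h call was lost without 24 h replicate 2 (0.0803), 24 h replicate 3 (0.0682), 24 h TNF replicate 1 (-0.42, 0.136) or 24 h TNF replicate 3 (0.0571). A peak 73.3 kb downstream of the second start lies in the neighbouring gene Egflam. It rose with TNF at 24 h from 51.6 ± 20 to 94.5 ± 15.4 (0.92 ± 0.26, 0.0217). That call was also lost without 24 h replicate 3 (0.64, 0.153) and in 3 other such fits, as well as in the fit to the untagged libraries (0.0687).

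The first Lifr start had means of 1231 ± 328 in NSPs, 795 ± 154 at 24 h, 443 ± 27.8 at 72 h and 650 ± 65.8 at 1 week. It fell at 24 h by 0.62 on the log2 scale (SE 0.15, adjusted p = 0.00107), with -0.41 without NSP replicate 1 (0.00763) and -0.4 after loess offsets (0.00643). It was not called with TNF at 24 h (-0.12 ± 0.15, 0.715) or 72 h (0.21 ± 0.15, 0.419). The 2 Lifr peaks that rose at 24 h lay 29.1 and 26.3 kb upstream of the first start and were weak. The latter had 5.59 ± 2.09 in NSPs and 15.4 ± 3.1 at 24 h, from 7 to 15 reads per library.

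Jak2 (chr19:29251803-29313095) encodes a kinase bound to gp130. Its start had 2202, 1405 and 1498 in NSPs, 1225, 1407 and 873 at 24 h, 636, 618 and 690 at 72 h and 1088, 871, 1063 and 975 at 1 week. NSPs and 24 h overlapped by 1 library, and NSP replicate 1 was the highest of all. The fall at 24 h was -0.54 ± 0.15 (adjusted p = 0.00381), lost without 24 h replicate 3 (-0.34, 0.0632) and in the fit to these 2 groups alone (0.0581). It was -0.34 without NSP replicate 1 (0.0283), -0.35 after total-read scaling (0.024) and -0.3 after loess offsets (0.0259). At 1 week against NSPs, a comparison across the tag, 7 of 9 Jak2 peaks were lower and 1 higher, beside 33.4% and 33.8% of all peaks. One of the 7, at 40.9 kb, had 1 library far from the others at 1 week (-0.94, 0.0435, and -1.32, 0.00463, without that library, replicate 1).

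No Jak2 peak was called with TNF at either time. At the start the values were 1120, 1069 and 1108 at 24 h with TNF (-0.06 ± 0.15, adjusted p = 0.876) and 771, 763 and 949 at 72 h with TNF. The 72 h libraries with TNF lay above those without, but the difference of 0.35 ± 0.15 was called only in the fit to these groups alone (0.0216, against 0.139 in the fit to all libraries), in the fit to the Luc libraries (0.0188) and without NSP replicate 1 (0.0323). The weak peak 43 kb into the gene rose at 24 h without TNF, from 11.6 ± 3.84 to 31 ± 5.34 (1.39 ± 0.3, 0.000322).

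Stat3 (chr11:100886806-100939594, minus strand) encodes the transcription factor on which these receptors converge. Its clearest TNF response lay upstream of the start by 7.4 kb, at chr11:100946732-100947232. The values were 797, 908 and 874 in NSPs and 460, 398 and 452 at 24 h, against 791, 825 and 829 at 24 h with TNF. At 72 h they were 479, 390 and 409 without TNF and 828, 780 and 802 with it, and 1 week had 309, 273, 392 and 419. Untreated differentiated libraries did not reach the treated ones, and the treated ones lay within or close below the range of NSPs.

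At this Stat3 peak the change was -0.98 ± 0.13 at 24 h against NSPs (adjusted p = 4.3e-07), 0.9 ± 0.13 with TNF at 24 h (2.2e-05) and 0.92 ± 0.13 with TNF at 72 h (1.6e-05). The TNF effect at 72 h minus that at 24 h was 0.02 ± 0.18. Neither TNF call was lost when any 1 library was left out or under any other setting tried.

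A second Stat3 site behaved alike in part. The peak at chr11:100897862-100898838, 41.2 kb into the gene, had 582, 359 and 373 in NSPs and 116, 137 and 137 at 24 h, a fall of -1.71 ± 0.17 (adjusted p = 1.6e-09). With TNF it had 183, 170 and 191 at 24 h and 283, 275 and 283 at 72 h, against 154, 179 and 134 at 72 h without. The groups did not overlap at either time. The TNF difference was 0.48 ± 0.17 at 24 h (0.0653) and 0.85 ± 0.17 at 72 h (0.000891), and the difference between the times, 0.37 ± 0.24, was not called (0.751).

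The Stat3 start was not called with TNF at either time. Its values were 3179, 2336 and 2224 in NSPs, 1978, 1857 and 1744 at 24 h, and 2001, 2013 and 1864 with TNF (0.08 ± 0.11, adjusted p = 0.778). At 72 h the means were 2103 ± 31.8 without and 2326 ± 299 with TNF (0.14 ± 0.11, 0.496). The peak 68.9 kb downstream, in the neighbouring gene Stat5a, was lower with TNF at 24 h (84.2 ± 3.29 to 43.8 ± 10.9, -0.96 ± 0.28, 0.0228), a call lost without any 1 of the 24 h libraries (0.0552 to 0.0792) or 24 h TNF replicate 2 (-0.74, 0.15).

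Socs3 (chr11:117966079-117970336, minus strand) encodes the inhibitor that STAT3 induces and that blocks gp130 signalling. The peak at chr11:117949718-117950218, 19.4 kb downstream of the start, had 188, 165 and 161 at 24 h and 282, 266 and 331 with TNF, then 221, 203 and 242 at 72 h and 406, 365 and 406 with TNF. Neither pair of groups overlapped. The change was 0.77 ± 0.15 (adjusted p = 0.00115) and 0.82 ± 0.15 (0.000581).

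The Socs3 peak 6.8 kb upstream had 165, 170 and 209 at 24 h and 266, 301 and 348 with TNF, a rise of 0.75 ± 0.15 (adjusted p = 0.00104). At 72 h the untreated libraries had 369, 295 and 280 and the treated ones 359, 288 and 329, which overlapped (0.05 ± 0.15, 0.873). The difference between the effects, -0.69 ± 0.21, was not called after adjustment over all peaks (0.445). Untreated cells had by then gained at this site, from 181 ± 24.4 at 24 h to 315 ± 47.6 at 72 h, across the tag.

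The peak at the Socs3 start covers part of the promoter window that holds the STAT match. It had a mean of 1464 ± 306 in NSPs and 1847 ± 80.7 at 1 week. After 24 h it was 1109 ± 63 without and 1254 ± 58 with TNF, and after 72 h 1192 ± 55.9 without and 1264 ± 141 with TNF. The TNF differences were 0.18 ± 0.11 (adjusted p = 0.404) and 0.08 ± 0.11 (0.724), the first called only after loess offsets (0.23, 0.0459). A gain at 1 week against 72 h was called 5.8 kb downstream (0.83 ± 0.12, 4e-06), with 0.49 (0.000531) after total-read scaling and 0.28 (0.0378) after loess offsets.

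**Figure D3:**
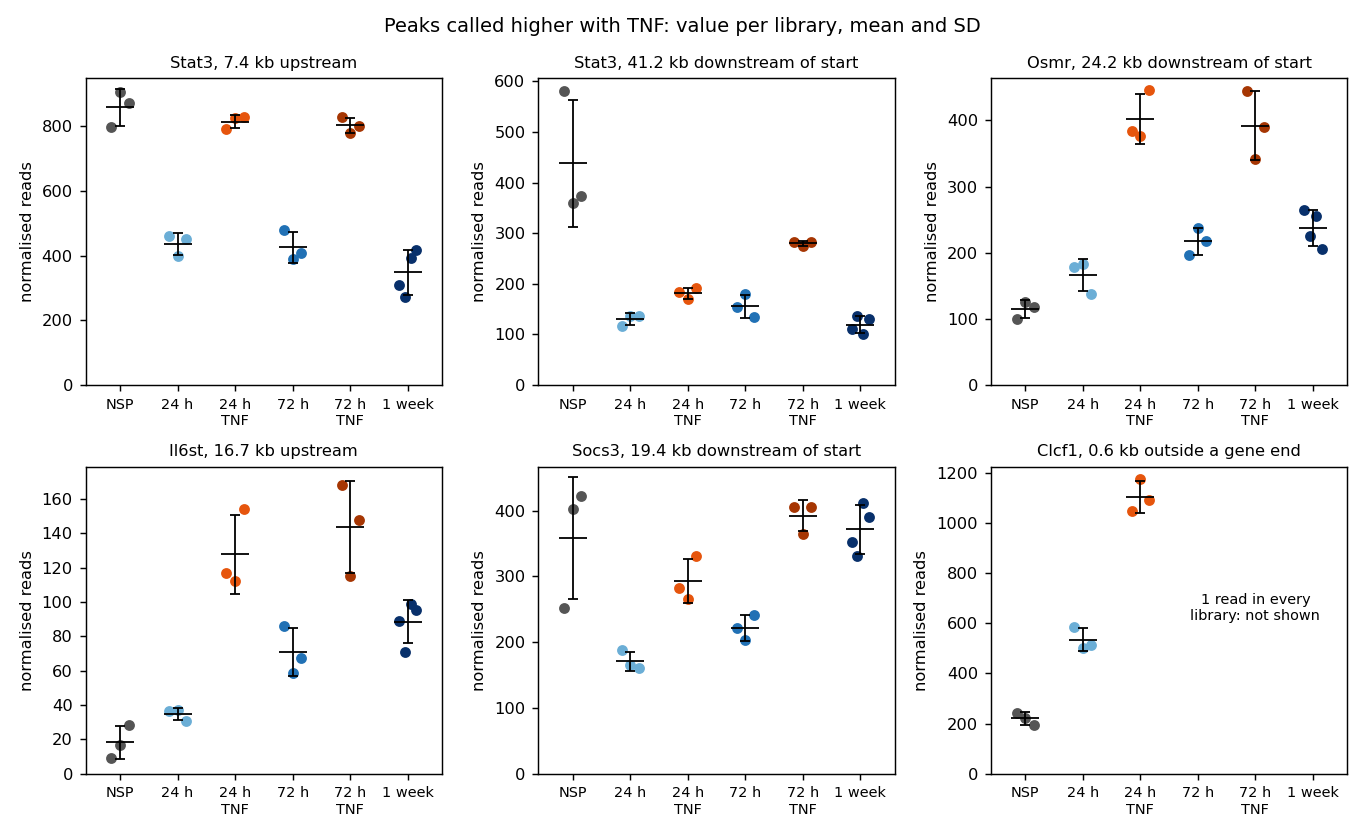
Normalised reads in each library (points) with group mean and SD (bars) for 6 member peaks called higher with TNF at 24 h, 72 h or both; every axis starts at 0. TNF-treated libraries lie above the untreated libraries of the same time in every panel. At the upstream Stat3 peak they lie within or close below the range of NSPs, a comparison that was not tested and that crosses the Luc tag at 72 h. Clcf1 held 1 read in each library of 72 h and 1 week, which are left out.

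The plot of TNF peaks by library, chosen for their TNF calls, shows 2 patterns. The changes at 24 h against NSPs and with TNF share the untreated 24 h libraries, so they do not vary independently. At the Stat3 and downstream Socs3 peaks, values had fallen at 24 h and were higher with TNF, whereas at the Osmr, Il6st and Clcf1 peaks they had risen at 24 h and were higher still with TNF. The Stat3 peak 41.2 kb into the gene was called with TNF only at 72 h. The rises at 24 h were not called for Osmr (0.054) and Il6st (0.0703) in fits to those 2 groups alone, and that of Il6st was 1.01, or 0.63 without NSP replicate 1 (0.0407).

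**Figure D4:**
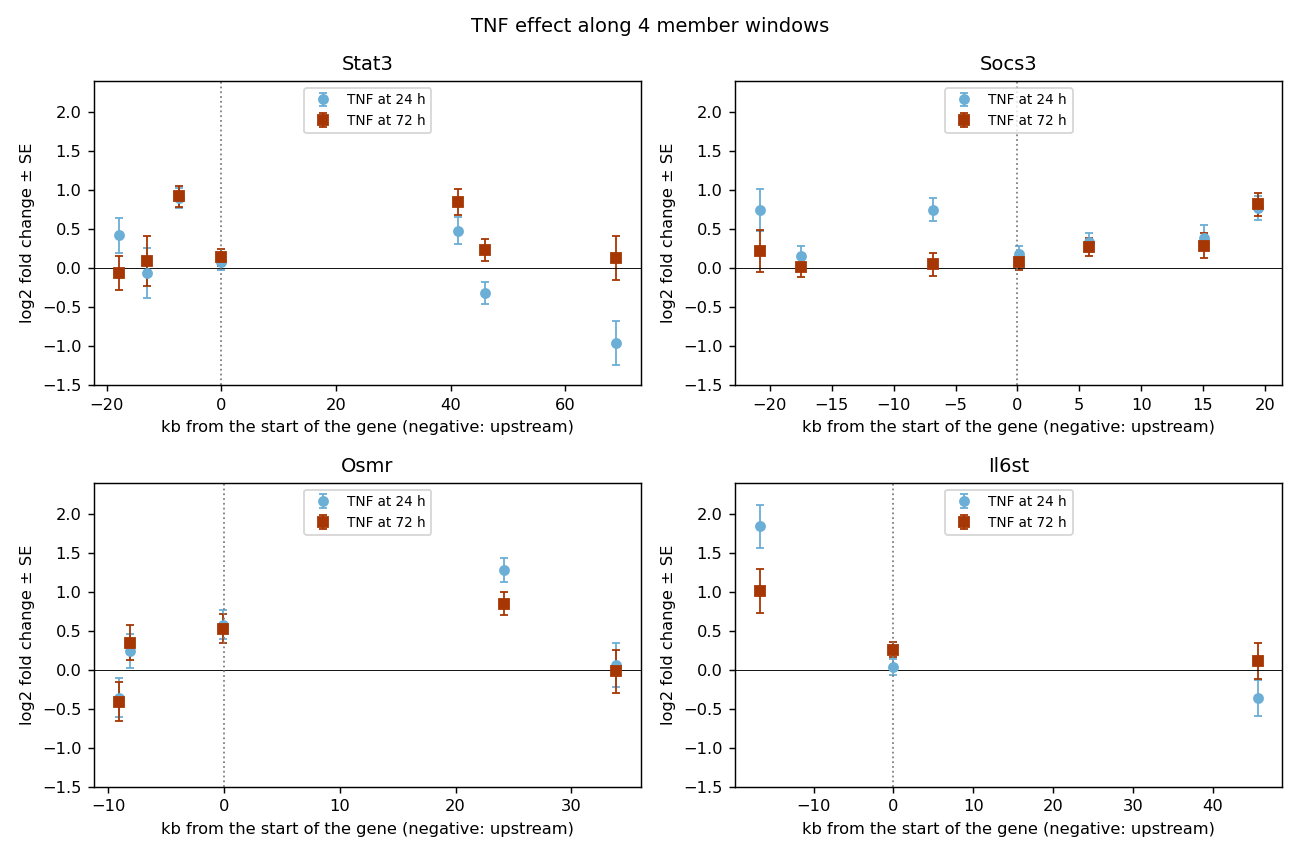
Log2 fold change with TNF at 24 h (circles) and 72 h (squares), with SE, against distance from the gene start in kb, for the peaks of Stat3, Socs3, Osmr and Il6st. The called changes sit away from the dotted line at the start, except the one at the Osmr start at 24 h.

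The plot along the windows shows the distance of these sites from the starts. Of the 9 peaks nearest a start or gene end, those of Osmr and Clcf1 were called higher with TNF at 24 h, and 0 of the 8 testable ones were called at 72 h in either direction. Among all 12730 tested peaks within 1 kb of a RefSeq start, TNF raised 2.38% and lowered 0.911% at 24 h, and raised 3.46% and lowered 1.41% at 72 h.

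**Figure D5:**
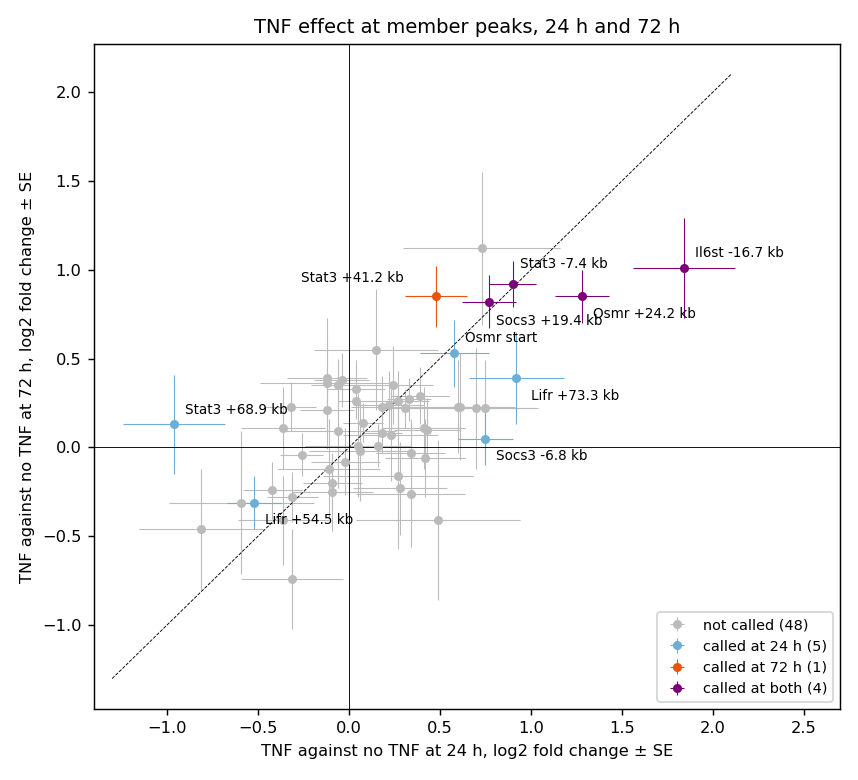
TNF effect at 72 h against that at 24 h for the 58 testable member peaks, as log2 fold change with SE; the dashed line marks equal effects. Purple points, 4 in all, were called at both times, blue at 24 h (5), orange at 72 h (1) and grey at neither (48).

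The comparison of the TNF effects at 24 h and 72 h gave 4 peaks called higher at both times, which were the upstream Stat3, the intragenic Osmr, the upstream Il6st and the downstream Socs3 peaks. The times use different control libraries. Of the 58 peaks, 3 were called higher at 24 h alone, 2 lower at 24 h alone and 1 higher at 72 h alone, and 0 were called in opposite directions. The signs agreed at 42 of 58. No share of all peaks is given for these counts or for the signs. A test of the difference between the times called 0 members, beside 0.00113% of all peaks, with 2 members higher and 2 lower at an unadjusted p under 0.05 and 0 by edgeR or DESeq2.

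Most promoter peaks that were called fell at 24 h, as they did over the whole table. At 24 h against NSPs, 5 of the 9 peaks nearest a start were lower (Stat3, Il6st, Lifr, Socs3 and Jak2) and 2 higher (Cntf and Clcf1), while 41% of all peaks within 1 kb of a start were lower and 6.17% higher. The Socs3 call was lost without NSP replicate 1 (-0.22, adjusted p = 0.0809), and that of Stat3 went from -0.46 to -0.3 (0.018). From 72 h to 1 week, 5 of 8 were higher and 0 lower, where 54.4% of all such peaks were higher and 6.17% lower. These splits depended on the scaling. With loess offsets, 23.8% of the peaks near starts were lower at 24 h and 9.67% higher at 1 week. At 24 h the calls at the Stat3 (-0.17, 0.0706), Il6st and Socs3 (-0.12, 0.206) starts were lost. All 5 starts called higher at 1 week lost the call, with 0.01 at Socs3 (0.948), 0.06 at Jak2 (0.684) and 0.09 at Lifr (0.591), and the change turned from 0.68 ± 0.11 to -0.07 at the Stat3 start and from 0.46 ± 0.09 to -0.1 at the Il6st start.

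The other genes of the pathway were taken from lists that leave out the members. Of 55 peaks at 9 further ligand and receptor genes, TNF raised 3 and lowered 2 at 24 h, and raised 3 and lowered 7 at 72 h, where over all peaks the shares were 7.06% and 3.53%, then 6.26% and 5.56%. The 3 higher at 24 h all lay at Il6ra, which encodes the IL-6 receptor subunit. Of 46 peaks at 10 genes of JAKs, STATs and feedback regulators, it raised 1 and lowered 2 at 24 h, and raised 2 and lowered 3 at 72 h, beside the same shares.

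At 12 genes known as STAT3 targets, TNF raised 22 of 64 peaks and lowered 0 at 24 h, and raised 17 and lowered 1 at 72 h (the same shares apply). These genes were listed with earlier results of these data known, so the counts describe the list and do not test it. Among them Cebpd, which encodes a C/EBP transcription factor, had all 3 of its peaks higher at both times, and its start rose from 642 ± 23.3 to 1120 ± 69.4 at 24 h (0.8 ± 0.1, adjusted p = 3.9e-06). Bcl3, which encodes a nuclear partner of NF-κB, had 4 of 7 peaks higher at both times, and Junb, an AP-1 subunit gene, had 5 of 9 at 24 h and 3 at 72 h. The Gfap start took the other direction at 72 h, from 529 ± 31.6 to 246 ± 9.58 (-1.1 ± 0.22, 0.00106). Serpina3n had 1 of 6 peaks higher at each time, and no peak of Pim1 or Timp1 was called with TNF. Binding of STAT3 was not measured.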

How the data were processed

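ATAC-seq was performed by the authors on 19 libraries, grouped here by their sample titles. Per the study's methods and the submitters' processing notes, the authors checked reads with FastQC, trimmed them with Trim Galore, aligned them with Bowtie2 to mm10, dropped mitochondrial reads using SAMtools and called peaks using MACS2, then left out blacklisted regions and applied DiffBind. Tool versions, treatment of duplicates and any shift of reads for the transposase are not given in the sources used here. The deposited table holds a signal of normalised reads in 90154 peaks, 89898 of them 500 bases wide. Coordinates are printed as deposited, and whether they count from 0 or 1 is not stated.

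In 100% of cases a value was a whole multiple of its library's lowest value (tolerance 0.01 reads), so reads could be recovered. The main test was limma-trend (limma 3.58.1, R 4.3.3) on log2(value + 1) with 1 coefficient for each of the 6 groups and the 19 libraries together. The log2 fold changes of low peaks are understated by the added 1. It was fitted to 88919 peaks kept by filterByExpr with a minimum count of 10 (1235 left out). Tests were two-sided, Benjamini-Hochberg adjustment ran over these peaks, and peaks with an adjusted p under 0.05 were called. For comparisons with a Luc library, shares of all peaks were taken over 88693 peaks.

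Members and gene lists were chosen with earlier results of these data known. Named peaks were the one closest to each start within 1 kb and the called peak with the smallest p per gene, comparison and direction. Every peak that could not be tested in the Luc libraries was also on this list. The text describes only a selection of the list, and a few further peaks, chosen after their values were seen. Called falls are among the results left out, such as that of the Osmr peak 9.1 kb upstream at 1 week against NSPs (-1.4). All 10 members matched the RefSeq gene table of GRCm38.p6 and 9 the promoter table. Scripts were tested on simulated data. Alternatives covered scaling, pseudocount, filter, window, tool (edgeR 4.0.16 and DESeq2 1.42.0 on recovered reads), the replicate block, the samples in the fit and leaving out each library. Reads carry no molecular identifiers, so depth describes counting error only. No genome sequence was used, so peaks away from promoters are given by position alone.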

Additional observations from a re-analysis of the deposited data

Results flagged for a closer look

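Among the 58 peaks examined in the 4 libraries of 1 week, 2 had a library far from the other 3, where about 5% of groups are picked out by chance. At the Lifr peak 61.2 kb downstream of the second start, replicate 2 was lowest with 50.7 normalised reads, against 68.6 to 71.4 in the others. At the Jak2 peak 40.9 kb into the gene, replicate 1 was highest with 24.7, against 6.6 to 8.58 in the others, which rested on few reads. This Jak2 peak is one of those called lower at 1 week against NSPs (-0.94, adjusted p = 0.0435, and -1.32, 0.00463, without replicate 1) and at 72 h against 24 h (-1.35, 0.0214, and -1.35, 0.0124). The Lifr peak was not called in these comparisons or at 1 week against 72 h, with or without replicate 2.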

How the results depend on the processing

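Of 81 called results for named peaks, 52 were called under every setting and 29 were lost or reversed under at least 1, and 13 of 44 others were called under at least 1. The 2 that reversed were the starts of Stat3 (-0.07) and Il6st (-0.1) at 1 week against 72 h after loess offsets. Fits to only the groups compared raised the TNF counts to 14 higher and 4 lower at 24 h, and to 9 higher and 1 lower at 72 h, and the fit to the Luc libraries, added after seeing the data, also gave 9. Total-read scaling left 14 lower at 24 h against NSPs, and 8 higher and 17 lower at 1 week against 72 h, where loess offsets left 8 higher. With a 10 kb window, TNF gave 5 higher and 1 lower at 24 h and 3 higher at 72 h. With a 50 kb window, which adds peaks, the counts were 27 higher at 24 h against NSPs, 14 higher with TNF at 24 h, 11 higher and 1 lower with TNF at 72 h, 26 higher and 14 lower at 1 week against 72 h, 31 higher at 72 h against 24 h and 47 higher at 1 week against NSPs.

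Leaving out 1 library at a time gave 11 to 14 higher and 22 to 26 lower at 24 h against NSPs, 5 to 13 higher and 0 to 3 lower with TNF at 24 h, and 4 to 8 higher and 0 to 1 lower with TNF at 72 h. It gave 12 to 15 higher and 5 to 12 lower at 1 week against 72 h (5 without 72 h replicate 1), 10 to 18 higher and 5 to 8 lower at 72 h against 24 h (5 without 72 h replicate 2), and 18 to 22 higher and 21 to 23 lower at 1 week against NSPs. The interaction stayed at 0 in each.

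Replicate numbers gave no clear sign of pairing the libraries. Correlations between same-numbered libraries ranged from -0.0416 to 0.106, and not every library was closest to its own number. By library-name number, the 72 h libraries 2 and 3 were closest to their own number with TNF, at low correlations (0.0309 and 0.0232). At 24 h libraries 2 and 3 were closest to theirs and library 1 was not. With the replicate block, 13 member peaks were higher and 23 lower at 24 h against NSPs, 8 and 2 with TNF at 24 h, and 5 and 0 with TNF at 72 h. The block by library-name number lost the upstream Il6st call with TNF at 72 h (0.93, adjusted p = 0.0591). The cause of the differences between settings was not tested.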
